A study of Mus musculus with 3 samples.

Results

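The peaks described here are those of a map of RNA contacts of MTR4 whose midpoint lay in a gene annotated by RefSeq as small nuclear RNA (biotype snRNA) on the mouse build mm10, outside the Tex14 gene. They numbered 201 of 15769 peaks (1.27%, 95% Wilson interval 1.11 to 1.46), in 144 of the 997 snRNA genes outside Tex14 (14.4%, against 15.2% of all genes in the table); 11 further peaks in snRNA genes inside Tex14 were left out. The samples were 3 LACE-seq libraries of KIT-positive cells, sorted with an antibody to CD117 from the testis of 8-day-old (P8) mice of the genotype Mtr4WT and precipitated with an antibody to MTR4; the labels do not say whether the 3 came from separate animals. In LACE-seq, ultraviolet light fixes a protein to RNA, the protein is precipitated, and reverse transcription of the attached RNA fragments gives the reads. All 3 libraries formed 1 group with no control precipitation, and every value comes from the single peak list analysed here, which GEO ties to replicate 3. For each peak the list gives a position and a plus or minus sign. With no score or read count, no level, replicate spread or depth could be given, no test was made, and intervals cover counting error only. Marker genes had a peak in 3 of 7 for differentiating spermatogonia (among them Kit, the gene of the receptor used for the sort) and 1 of 3 for germ cells, and in 3 of 6 for Sertoli cells, 5 of 6 for Leydig and interstitial cells and 2 of 5 for mast cells, macrophages and endothelium, against 25.3% of all protein-coding genes. The list gives no expression, and the part of such cells in the values below was not tested.

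Spliceosomal snRNAs are short, abundant nuclear RNAs that assemble with Sm or Lsm proteins into the particles that remove introns. U1 pairs with the 5′ splice site, U2 with the branch point, and U5 and U6 take part in catalysis, while U11 and U12 serve the rare minor introns. The Mtrex gene encodes MTR4, a helicase that feeds nuclear RNA to the exosome, and in human cells its NEXT complex handles extended snRNA transcripts. RefSeq gives 10 snRNA genes outside Tex14 a symbol that starts with Rnu, and names a spliceosomal RNA in this way for 7 of the 144 genes with a peak, which held 14 of the 201 peaks. The biotype also takes in RNAs that are not spliceosomal: Rn7sk, which restrains the elongation factor P-TEFb, with 5 peaks; Rnu3a, a U3 RNA of ribosomal RNA processing, with 2; and Rnu7, which acts in histone mRNA 3′ end formation, with 1. The other 179 peaks lay in 134 genes with a Gm or LOC symbol, for which the gene table names no U RNA. Copies of one snRNA are near-identical and reads can map to several of them, so the copy from which a peak came is uncertain.

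No table used here holds snRNA sequences under their own names, but 2 of the genes with a peak lie whole inside the RefSeq promoter window of a neighbour and could be read from it (build GRCm38.p6, the chromosomes of mm10). The first, LOC115489800, lies in the window of the long noncoding gene Gm26232, here chr3:96450389-96450688 on the plus strand, and takes bases 58 to 223 of the printed stretch. The second, Rnu7, lies in the window of Grcc10, here chr6:124741221-124741286 on the minus strand, and takes bases 1 to 62. They are shown because they place peaks on the letters of the RNA. Capitals mark the bases inside a peak.
LOC115489800: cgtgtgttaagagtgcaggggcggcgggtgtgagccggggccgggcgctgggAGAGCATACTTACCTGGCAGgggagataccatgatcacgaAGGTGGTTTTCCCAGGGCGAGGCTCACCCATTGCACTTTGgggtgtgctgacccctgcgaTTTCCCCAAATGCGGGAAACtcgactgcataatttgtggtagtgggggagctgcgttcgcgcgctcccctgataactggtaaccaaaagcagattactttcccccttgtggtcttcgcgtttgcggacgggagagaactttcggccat
Rnu7: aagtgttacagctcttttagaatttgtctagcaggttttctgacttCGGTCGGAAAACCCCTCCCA
LOC115489800 is 166 nt long, as is Rnu1b6, and its plus strand held the motif ACTTACC once, at bases 3 to 9 of the gene. This is the stretch by which U1 is known to pair with the 5′ splice site. Counting both strands, ACTTACC was found in 1.27% of all 32851 promoter windows cut to the same 166 nt. The 3 peaks of LOC115489800 covered bases -4 to 15, 36 to 75 and 96 to 115 of the RNA, so the first, as listed, spans the motif. Whether the listed positions are offset from the sites of contact was not tested; with every peak moved 30 nt towards higher coordinates, the first would not span it. The motif AATTTGT, part of the Sm protein site of such RNAs, stood at bases 126 to 132, in no peak as listed. With the same move of 30 nt, the third peak of LOC115489800 would span it. In Rnu7, AATTTGT stood at bases 21 to 27 of the minus strand, again outside the peak as listed. That peak covered bases 47 to 66 and so passes the 3′ end of the gene. Moved by the same 30 nt, it would span the motif and lie inside the gene. AATTTGT was held by 1.81% of the windows cut to 166 nt and 0.615% of those cut to 62 nt. The motifs were searched on both strands and were found in these 2 genes only on the strand named here.

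In both genes the sign in the list was opposite to the strand with the motif: minus for LOC115489800, plus for Rnu7. For the other genes with a peak no strand was at hand. Over the rest of the list the sign carried little of the strand: of 6113 peaks in 1 protein-coding gene and over 1 kb from small RNA genes, 3201 (52.4%, interval 51.1 to 53.6) had the sign opposite to the gene. In snRNA genes it was uniform within a gene. All 39 snRNA genes with 2 or more peaks had them with 1 sign (interval 91.0 to 100), as had 30 of 30 rRNA genes and 6 of 7 snoRNA genes, against 886 of 1807 protein-coding genes (49.0%, interval 46.7 to 51.3). This comparison matched neither the distance between peaks nor their number per gene. The longest snRNA gene with a peak is 332 nt, while all protein-coding genes have a median length of 17169 nt. The part of distance was not tested. By gene, 57 snRNA genes carried the minus sign and 87 the plus sign (39.6% minus, interval 32.0 to 47.7). By peak, 92 of 201 carried the minus sign (45.8%, interval 39.0 to 52.7), against 61.5% of the 15568 other peaks (interval 60.7 to 62.2). Peaks of 1 gene shared their sign, so the interval by peak is too narrow. The lower share was not common to all gene lengths. Genes of 107 nt held 15 minus-sign and 57 plus-sign peaks. Those of 164 to 166 nt held 43 and 24, and those of 187 to 191 nt held 18 and 6.

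snRNA genes as a whole had a peak about as often as all genes in the table, and more often than other genes of up to 400 nt. The share differed with their annotated length. The share of 14.4% (interval 12.4 to 16.8) compares with 15.2% of all 49943 genes, 6.40% of the 4721 other genes of up to 400 nt, 6.42% of snoRNA, 1.30% of miRNA, 21.8% of tRNA and 90.5% of rRNA genes. Per length, snRNA genes held 1.76 peaks per kb, against 5.72 peaks per Mb elsewhere. At 164 to 166 nt, the range of the named U1 genes when Rnu1a1 (164 nt, inside Tex14) is counted, 32 of 52 genes had a peak (61.5%, interval 48.0 to 73.5): 19 of 32 at 164 nt, 8 of 12 at 165 nt and 5 of 8 at 166 nt. Those of 187 to 191 nt, beginning at the length of the U2 gene Rnu2-10, had one in 13 of 22 (59.1%, interval 38.7 to 76.7), of which 12 were among the 15 genes of 191 nt. Those of 116 nt, as the U5 gene Rnu5g, had one in 7 of 9 (77.8%, interval 45.3 to 93.7). At 107 nt, the length of the U6 gene Rnu6, it was 72 of 384 (18.8%, interval 15.2 to 23.0). Of the shorter genes of 102 to 106 nt, 2 of 264 had a peak (0.758%, interval 0.208 to 2.72), 1 of them at 102 nt, and of those of 59 to 65 nt 1 of 72 had one, which was Rnu7. At 108 nt, 6 of 33 genes had a peak, and from 109 to 112 nt none of 37. A shared length does not name the RNA of a gene, and whether sequence, expression or mapping differs between these lengths was not tested. Near-identical copies may not be independent cases, so the intervals by length may be too narrow.

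**Figure D1:**
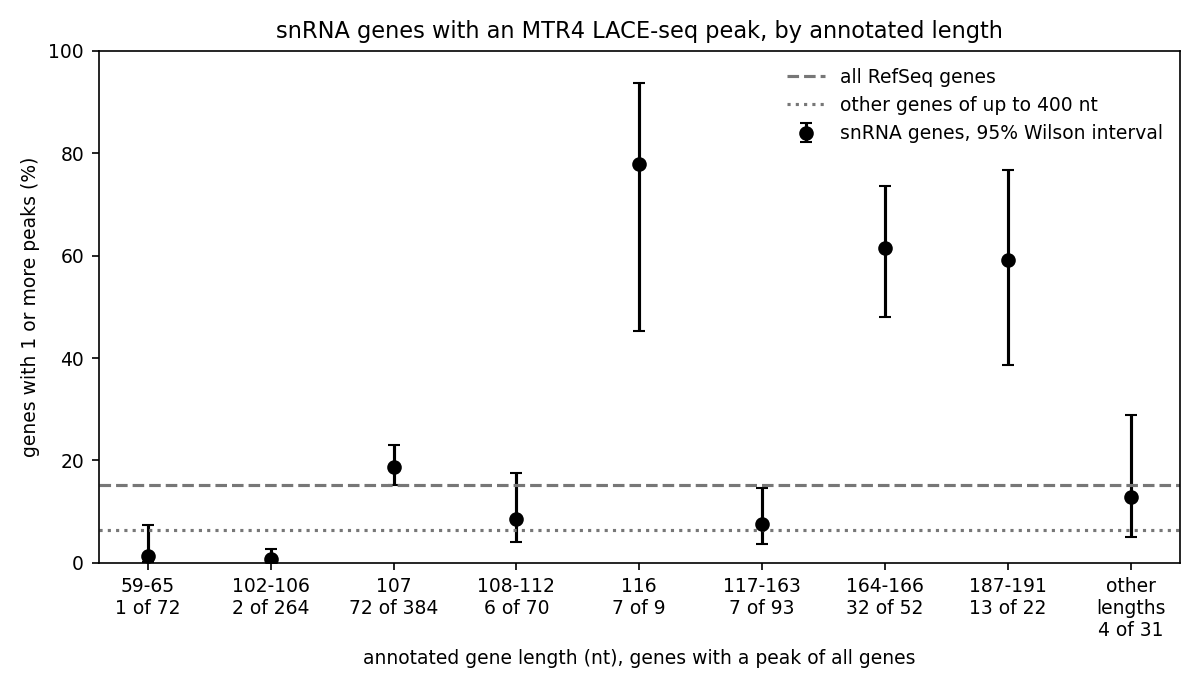
Percentage of snRNA genes outside Tex14 with 1 or more peaks (y axis) by annotated gene length (x axis, with the number of genes with a peak and of all genes). Points are shares with 95% Wilson intervals, the dashed line is the share of all RefSeq genes (15.2%) and the dotted line that of other genes of up to 400 nt (6.40%). Genes of 116, 164 to 166 and 187 to 191 nt stand above both lines with their whole interval. The intervals take each gene as a separate case, which near-identical copies may not be, so they may be too narrow. The point for genes of 107 nt (18.8%) also lies above both, with an interval (15.2 to 23.0) that reaches the dashed line.

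Peaks were wide more often than elsewhere in the list. Of the 201 peaks, 141 spanned 20 nt, the narrowest width in the list, 50 spanned 40 nt, and the widest 100 nt. A width of 40 nt or more was seen for 60 of 201 (29.9%, interval 24.0 to 36.5), against 3.96% of all other peaks (interval 3.66 to 4.27). Among the other small RNA genes the share was 52.9% in rRNA genes (46 of 87), 11.8% in snoRNA genes (11 of 93) and 12.4% in tRNA genes (11 of 89).

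The U1 genes carried up to 3 peaks in a repeated layout. Positions are given below as the peak midpoint in nt from the end of the gene with the lower coordinate, since strand was not at hand, and each is no finer than the 20 nt grid of the list. Rnu1b2 (chromosome 3, 96374021 to 96374185) had minus-sign midpoints at 11, 61 and 111 nt. Rnu1b6 (chromosome 3, 96460024 to 96460189) had plus-sign midpoints at 8, 58 and 108. Rnu1b1 (chromosome 3, 96359953 to 96360117) had plus-sign midpoints at 49 and 99, and a further peak had its midpoint 2 nt below the gene. In these 3 genes a spacing of about 50 nt was thus present with either sign. Over the 32 genes of 164 to 166 nt with a peak, 12 had 3 peaks, 11 had 2 and 9 had 1. In the 12 genes with 3 peaks, 8 with the minus and 4 with the plus sign, the midpoints fell at 5 to 14, 55 to 74 and 105 to 124. The first gap between their midpoints was 50 to 60 nt and the second 40 to 60 nt, so the spacing was not always even. Reads can map to several near-identical copies, so these genes may not be independent cases of the layout. The same holds for the other genes of 1 length described below. Among all 67 peaks of this length, 22 had their midpoint in the first 20 nt and 19 at 101 to 120, while none lay beyond 124.

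The U2 gene Rnu2-10 (chromosome 11, 101658238 to 101658424) had 2 minus-sign peaks, at 34 and 124, the second 40 nt wide. In the 10 minus-sign genes of 187 to 191 nt with a peak, 9 peaks fell at 91 to 130 and 7 at 131 to 160, against 2 in the first 40 nt. Each of these 10 genes, Rnu2-10 included, also had a minus-sign peak 19 to 37 nt below its lower end, which is not counted among the 201. The 3 plus-sign genes of that length had none there; Gm25813, with 3 plus-sign peaks on chromosome 8 (52336915 to 52337105), had them at 17, 117 and 177.

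The U6 gene Rnu6 (chromosome 17, 13432033 to 13432139) had 1 plus-sign peak, at 39. All 72 genes of 107 nt with a peak had exactly 1. Its midpoint lay in the 40 nt next to the lower end in 71 of them, with a range of 16 to 32 for the 15 minus-sign peaks and 2 to 60 for the 57 plus-sign peaks, medians 26.0 and 24.0. The 2 signs thus share 1 range when counted from the lower coordinate. If transcription is read against the sign, as in the 2 genes with a sequence, minus-sign midpoints stand 16 to 32 nt from the 5′ end. Plus-sign midpoints then stand 48 to 106 nt from it. This separation follows from counting plus-sign genes from the upper end, since nearly all midpoints lie near the lower end. The strand of these 72 genes was not at hand, and neither gene with a sequence is of 107 nt.

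Rnu7 (chromosome 6, 124741225 to 124741286) had its 1 plus-sign midpoint at 7. Rnu5g (chromosome 9, 65201726 to 65201841), a U5 gene, had 2 plus-sign peaks, at 6 and 46, and none of the 10 peaks in genes of its length was wider than 20 nt. The U12 gene Rnu12 (chromosome 15, 83149645 to 83149794) had 1 minus-sign peak, at 87. The U11 gene Rnu11 (chromosome 4, 132270079 to 132270186) had 0 by the midpoint rule, and a plus-sign peak with its midpoint 8 nt below its lower end. Outside the spliceosome, Rn7sk (chromosome 9, 78175302 to 78175633) had 5 plus-sign peaks at 30, 100, 150, 220 and 290, and Rnu3a (chromosome 10, 40258468 to 40258679) 2 minus-sign peaks at 84 and 144.

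**Figure D2:**
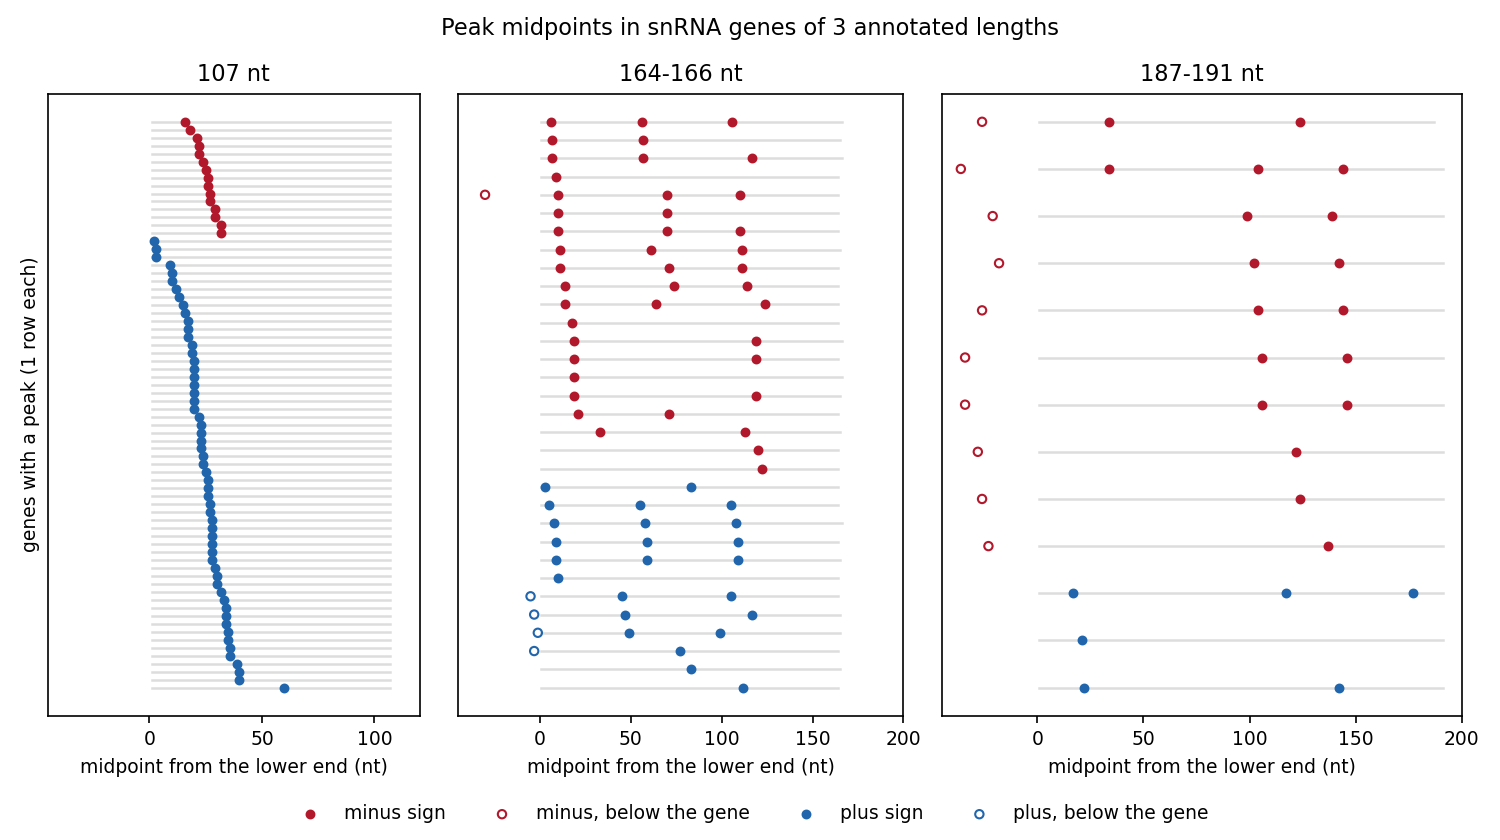
Peak midpoints in snRNA genes with a peak, in nt from the end with the lower coordinate (x axis), 1 row per gene, for annotated lengths of 107 nt (72 genes), 164 to 166 nt (32 genes) and 187 to 191 nt (13 genes). Grey lines are genes, filled points are peaks inside them, open points are peaks up to 50 nt below them, red is the minus and blue the plus sign. Genes of 107 nt have 1 peak near the lower end with either sign, and genes of 164 to 166 nt have up to 3 that recur at like positions.

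The midpoint was nearer to the lower than to the upper end of the gene for 91 of 109 plus-sign peaks (83.5%, interval 75.4 to 89.3), while for minus-sign peaks, at 53 of 92, the interval took in an even split (57.6%, 47.4 to 67.2). The side differed between lengths: 71 of 72 midpoints were nearer to the lower end in genes of 107 nt, 44 of 67 in genes of 164 to 166 nt, 5 of 10 in genes of 116 nt and 5 of 24 in genes of 187 to 191 nt. Genes of 107 nt held 57 of the 109 plus-sign peaks but 15 of the 92 minus-sign peaks. The contrast between the signs is therefore mixed with gene length, and the part of length in it was not tested. The midpoint lay in the 40 nt next to the lower end for 116 of the 201 and in the 40 nt next to the upper end for 3, all 3 of the plus sign (13, 15 and 17 nt from it). Of the 116, 71 were in genes of 107 nt; in genes of all other lengths the counts were 45 and 3 of 129. Within 50 nt below the 997 genes lay 20 further peaks, 14 minus and 6 plus, against 0 within 50 nt above them. The nearest were 1, 2 and 4 nt outside, and the nearest midpoints inside were 2, 3 and 3 nt from the lower end. Farther out, 5 peaks lay 201 to 1000 nt below the genes and 5 at that distance above them. The same side held the near peaks of other small RNA genes: 35 against 0 for snoRNA, 36 against 0 for tRNA and 21 against 0 for rRNA genes. What places these peaks on that side was not tested.

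**Figure D3:**
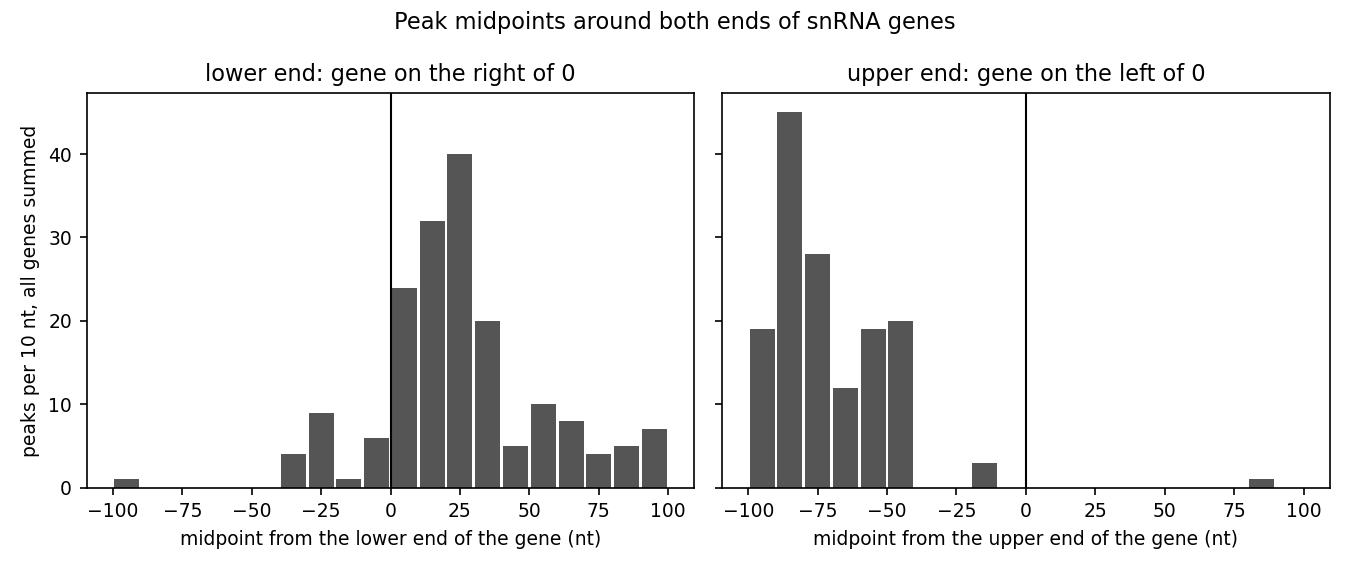
Number of peak midpoints per 10 nt (y axis) by distance in nt from the lower end (left) and the upper end (right) of the 997 snRNA genes outside Tex14, both signs summed; peaks inside other small RNA genes are left out. Midpoints crowd next to the lower end and extend to 37 nt below it, while the 50 nt above the upper end hold 0.

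By position the 201 peaks formed 120 clusters, with neighbours less than 100 kb apart, on 20 chromosomes; 98 peaks stood alone. In 8 clusters with 2 or more genes lay 68 peaks. The cluster with the most peaks, on chromosome 3 (96328421 to 96488860, 160 kb), held 20 peaks in 8 genes of 165 or 166 nt: Gm24830, Rnu1b1, Rnu1b2, Gm24136, LOC115489800, Rnu1b6, Gm25890 and Gm22614. Of these, 3 carry the symbols of U1b genes. On chromosome 12 (54696781 to 54738580, 41.8 kb) lay 18 peaks in 7 genes of 164 nt, Gm22513, Gm22634, LOC115488065, Gm25679, Gm26444, LOC115488077 and Gm22317. On chromosome 11 (101604941 to 101658380, 53.4 kb), 10 peaks lay in Rnu2-10 and its 4 neighbours of 191 nt, Gm26316, LOC115487916, Gm24950 and Gm23971. The chromosome 1 cluster (72226341 to 72255160, 28.8 kb) held 8 peaks, all minus, in Gm25360, Gm23472, Gm24497 and Gm25939, each of 191 nt. No snRNA gene inside the spans of these 4 clusters was without a peak (8 of 8, 7 of 7, 5 of 5 and 4 of 4), though the outermost genes of a span have one by construction. The first 3 clusters mixed signs between neighbours, with 13 minus and 7 plus peaks on chromosome 3, 12 and 6 on chromosome 12, and 8 and 2 on chromosome 11.

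**Figure D4:**
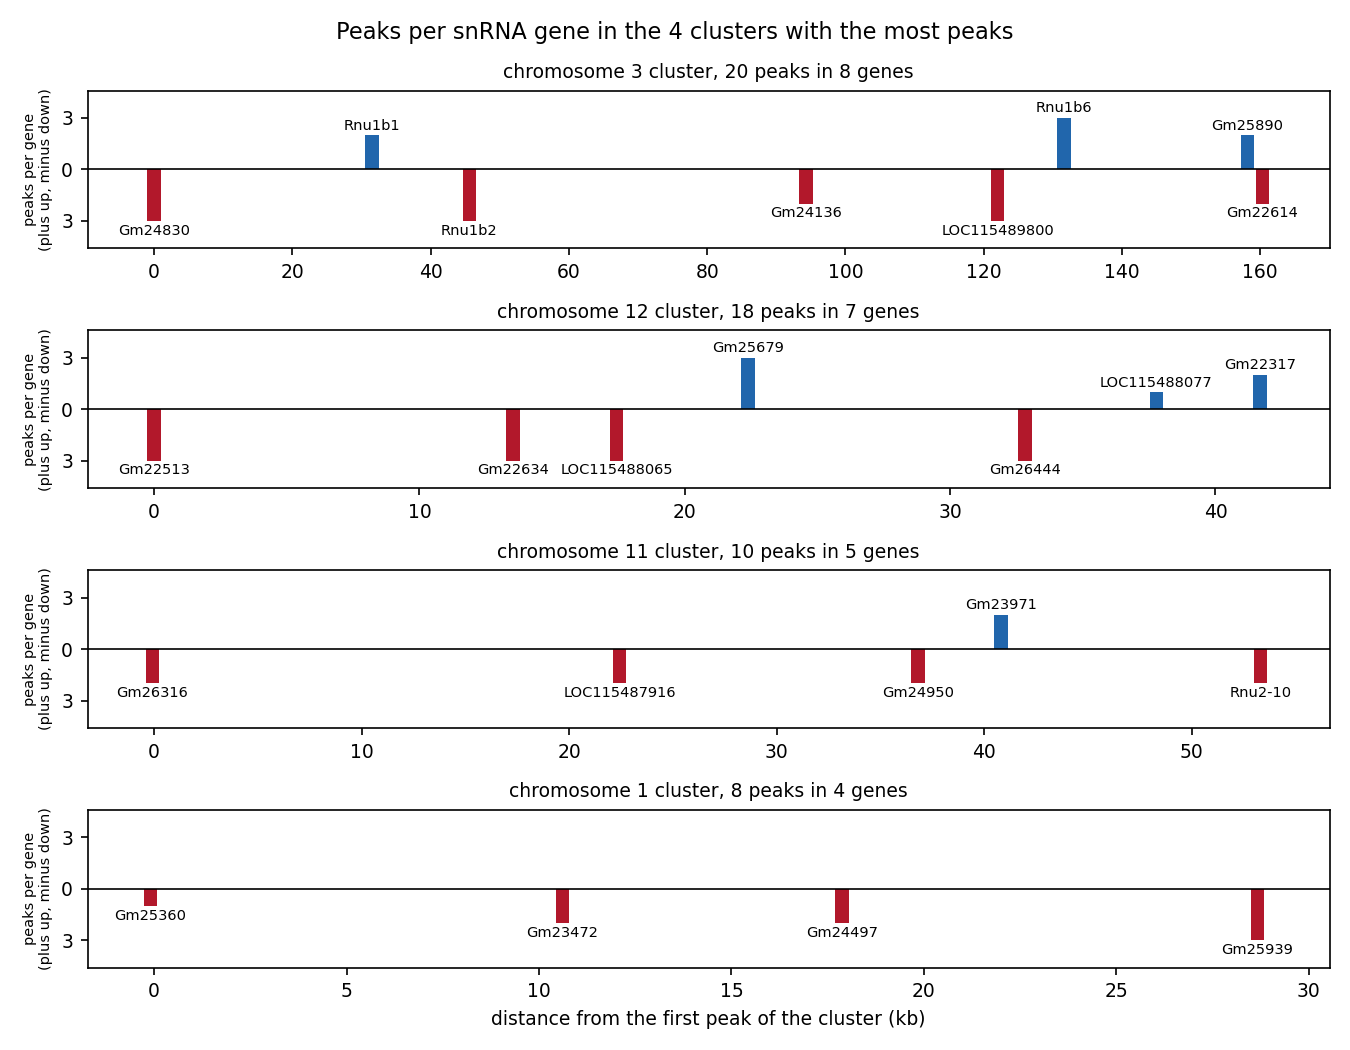
Number of peaks per snRNA gene in the 4 clusters with the most peaks, at the distance of the gene from the first peak of its cluster (x axis, kb); plus-sign peaks are drawn upwards in blue and minus-sign peaks downwards in red. The chromosome 3, 12, 11 and 1 clusters hold 20, 18, 10 and 8 peaks.

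Smaller groups of 3 or more peaks were few. Gm25313 and Rnu5g on chromosome 9 (65196601 to 65201780) had 2 plus-sign peaks each. Gm24265 on chromosome 5 (115489459 to 115489599), of 141 nt, had minus-sign midpoints at 13, 53 and 93, and its neighbour Gm24407 had 1 at 98. Single genes with 3 peaks were Gm24924 on chromosome 18, Gm23238 on chromosome 19 and Gm22042 on chromosome 4, all of 164 or 165 nt, beside Gm25813, and Rn7sk stood alone with 5. In all, 15 snRNA genes had 3 peaks. The naming rule, with ties broken by summed width and then position, took 10 Gm or LOC genes among them: Gm24830, Gm25813, Gm25939, LOC115489800, Gm22042, Gm22634, Gm25679, Gm24924, Gm24265 and Gm22513. LOC115488065, Gm26444 and Gm23238 also had 3 peaks and fell behind by the tie rule only.

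Of the 201 peaks, 80 lay inside a longer gene as well (39.8%, interval 33.3 to 46.7), 56 of them in 43 protein-coding genes, and 121 lay in no protein-coding or long noncoding gene. The long noncoding gene D230017M19Rik contained 5, those of Gm24497 and Gm25939 in the chromosome 1 cluster, and Gm40527 contained 4, those of Gm25313 and Rnu5g. Sirt4, a mitochondrial sirtuin gene, contained 3, all in Gm24265, and Trpm6, an ion channel gene, 3, all in Gm23238. The protein-coding genes BC107364 and Ss18 and the long noncoding genes Gm10685, Gm26232 and Gm40099 also contained 3 each. Atrx, a chromatin remodeller gene, was among several hosts with 2, both in Gm26020. The sign was opposite to the host's strand for 29 of 57 peaks with a host of 1 known strand (50.9%, interval 38.3 to 63.4).

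Protein-coding genes that make and use snRNAs had a peak about as often as all protein-coding genes. Of 82 listed names 81 matched, and 19 of these genes had a peak outside small RNA genes (23.5%, interval 15.6 to 33.8), against 25.3% of all 21887 protein-coding genes; the median lengths were 17399 and 17169 nt. Prpf8, a core protein of the U5 particle, had 2 peaks. Ints7 of the Integrator, which cuts nascent snRNAs, Snrnp200, the helicase that unwinds U4 from U6, and Tgs1, which forms the trimethyl cap, had 1 each. By group, 6 of 14 Integrator genes had a peak, 2 of 5 cap and export genes, 3 of 16 Sm and Lsm genes, 1 of 3 U1 protein genes, 1 of 11 U2 protein genes, 2 of 10 tri-snRNP genes, 4 of 14 assembly and end-processing genes, and 0 of the 5 SNAPc genes, whose complex starts snRNA transcription. Median gene length differed between groups, from 6498 nt for Sm and Lsm genes to 38869 nt for Integrator genes. The part of gene length in these shares was not tested. Of the 3 NEXT genes, Mtrex, Zcchc8 and Rbm7, 0 had one.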

How the data were processed

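The deposited list gives the authors' peaks in 4 columns with no header: chromosome, start, end and sign. It holds no score or count. Per the submitters' processing notes, reads were handled with cutadapt 1.15 and Bowtie 1.0.0 on mm10; the peak caller, duplicate handling and pooling of replicates are not given in the sources used here, though the name of the deposited list has parts that read as merging, deduplication and Piranha. All coordinates are multiples of 20 nt. The handling of reads that map to several places is not given either, and bears on every copy of an snRNA.

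Peaks were joined by midpoint to the RefSeq gene table of GRCm38.p6 (Python 3.11.15, pandas 2.3.3), and coordinates are 1-based. Clusters join midpoints less than 100 kb apart. Length classes were built around the annotated lengths of Rnu genes: 107 and 116 nt exactly, the range of Rnu1a1 to Rnu1b6 (164 to 166 nt), and Rnu2-10 and up to 4 nt more (187 to 191 nt). Intervals are 95% Wilson intervals from SciPy 1.17.1. The join and the merging of peaks were tested on simulated data with planted membership. Genes were named by this rule: every Rnu gene, the 10 other snRNA genes with the most peaks (ties by summed width, then position), every cluster of 3 or more peaks, and the 4 listed snRNP genes with the most peaks. Host genes, genes with edge peaks and the 2 genes with a sequence were chosen after their values were seen. Members and lists were chosen with earlier results of these data known. No control library was used, so contacts could not be told apart from background of abundant RNA.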

Additional observations from a re-analysis of the deposited data

How the results depend on the processing

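Of 40 recomputed values, 32 stayed within 1.5 times the count or inside the interval of the value reported. Peaks of 40 nt or more only, a stand-in for a stricter threshold, left 60 peaks in 53 snRNA genes and 5 Rnu genes, and keeping Tex14 gave 14 Rnu genes. The share of wide peaks was 49.3% with nearby peaks of 1 sign merged and 36.8% counted by gene. Clusters of 2 or more peaks numbered 8 after merging, since merging leaves 1 peak per gene. Listed snRNP genes with 2 or more peaks numbered 1. Any overlap gave 207 peaks, and Rnu11 then counted. Chosen after seeing the data: moving all peaks 30 nt upwards gave 214 peaks, and leaving out Rn7sk, Rnu3a and Rnu7 gave 193. No paired analysis was possible because there is 1 group and 1 list; for the same reason no replicate could be left out. Depth per peak is unknown, so a gene without a peak is not shown to lack contact.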

Other observations

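Among the 72 peaks in genes of 107 nt, 23 of the 57 with the plus sign were 40 nt or wider, against 0 of the 15 with the minus sign. The 160 kb chromosome 3 cluster also held 17 peaks outside its snRNA genes: 6 in tRNA genes, 2 within 50 nt below an snRNA gene and 9 elsewhere. In the chromosome 11 and chromosome 1 clusters, the 3 other peaks of each all lay within 50 nt below an snRNA gene, and in the chromosome 12 cluster 2 of the 4 did, with 2 elsewhere. By chromosome, peaks were most numerous on chromosome 3, with 32 in 19 of its 84 snRNA genes. The 160 kb cluster held 20 of these peaks. Chromosome 12 held 25 in 14 of 44 genes, a higher share of genes, and chromosome X held 4 in 3 of 72. Over all snRNA genes outside Tex14 the share with a peak was 14.4%.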
